A study of Mus musculus with 21 samples.

Results

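A set of 6 protein-coding genes of the mouse mitochondrial genome encode subunits of respiratory complexes III, IV and V, and their transcripts were followed in 21 hearts. They are mt-Cytb of complex III, mt-Co1, mt-Co2 and mt-Co3 of complex IV, and mt-Atp6 and mt-Atp8 of complex V. The genes were taken by name, with no use of measured values, and all 6 were found among the 35890 genes to which the deposited transcripts could be matched. The other 7 mitochondrially encoded messenger RNAs, all of complex I, serve only for comparison. The mice were C57BL/6NJ males, 8 to 10 weeks old, assigned to 10 weeks of chow or of a high-fat diet with 60% of its energy from fat. Hearts were taken 6 weeks after an adeno-associated virus carrying renin (AAV-Renin) or a null vector was injected behind the eye. HFD stands for the high-fat diet in the names of the 4 groups, which held 4 hearts in chow control, 6 in chow renin, 6 in HFD control and 5 in HFD renin. Control means the null vector in the series description and "novirus" in the sample titles. The promoter of the renin vector and the cells that took it up were not given in the sources used here, and the vector's own transcript was not analysed here. The design asks how the combination of high-fat diet and renin, meant as a model of heart failure in which ejection fraction is preserved, compares with its controls and with each component alone.

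Mitochondrial messenger RNAs are made inside the organelle as long transcripts from either strand of a circular genome, and are then cut apart, mostly at the transfer RNAs that lie between them. Cytochrome b, the product of mt-Cytb, carries the quinone sites of complex III. The products of mt-Co1, mt-Co2 and mt-Co3 form the core of cytochrome c oxidase, and mt-Co1 and mt-Co2 hold its heme and copper centres. ATP synthase subunit a, from mt-Atp6, forms the proton channel beside the rotor ring, and mt-Atp8 encodes a small subunit of the same membrane part. All other subunits of these complexes come from the nucleus and are imported. The heart is among the tissues richest in these transcripts because cardiomyocytes are packed with mitochondria.

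In the GENCODE M21 annotation of build GRCm38 all 6 genes lie on the plus strand of the mitochondrial chromosome, each as 1 exon with no annotated intron. They are mt-Co1 at chrM:5328-6872 (ENSMUSG00000064351, 1545 bases), mt-Co2 at chrM:7013-7696 (ENSMUSG00000064354, 684 bases), mt-Atp8 at chrM:7766-7969 (ENSMUSG00000064356), mt-Atp6 at chrM:7927-8607 (ENSMUSG00000064357, 681 bases), mt-Co3 at chrM:8607-9390 (ENSMUSG00000064358, 784 bases) and mt-Cytb at chrM:14145-15288 (ENSMUSG00000064370, 1144 bases). The annotated spans of mt-Atp8 and mt-Atp6 overlap by 43 bases, which is 21.1% of mt-Atp8 and 6.31% of mt-Atp6, and mt-Atp6 and mt-Co3 share 1 base. Reads from the overlap cannot be given to 1 gene by sequence alone, so the estimated counts of mt-Atp8 and mt-Atp6 are uncertain to that extent. The next lines show the end of mt-Atp8 (chrM:7918-7969) and the start of mt-Atp6 (chrM:7927-7978), plus strand, 5′ to 3′, with the shared bases in capitals. The same stretch holds the start codon of mt-Atp6 and the stop codon of mt-Atp8 in different reading frames.
mt-Atp8 end: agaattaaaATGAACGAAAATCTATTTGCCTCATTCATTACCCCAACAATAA
mt-Atp6 start: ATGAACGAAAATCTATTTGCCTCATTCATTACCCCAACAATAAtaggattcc

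The lengths of mt-Cytb and mt-Co3 leave 1 base over after whole codons, and both annotated transcripts end in a lone T. In animal mitochondria such a stop codon is completed by the poly(A) tail. The ends of mt-Cytb (chrM:15271-15288) and mt-Co3 (chrM:9373-9390) are shown beside that of mt-Co1 (chrM:6855-6872), whose stop codon is complete, with the stop bases in capitals.
mt-Cytb end: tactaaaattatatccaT
mt-Co3 end: tttattgatgaggatctT
mt-Co1 end: tatgtaaaagtaaaaTAA

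Of the 6, mt-Co2 has a nuclear copy that took a measurable part of its reads. Gm28661, an unprocessed pseudogene on chromosome 1 (chr1:24614885-24615565, minus strand), is identical to the first 681 bases of mt-Co2 at every position and lacks only the last 3. Its last bases (chr1:24614885-24614914) and those of mt-Co2 (chrM:7664-7696) are shown with the stop codon that mt-Co2 alone has in capitals. A read from any other place in mt-Co2 fits both genes.
mt-Co2 last bases: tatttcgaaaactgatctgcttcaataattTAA
Gm28661 last bases: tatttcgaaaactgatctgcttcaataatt

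Estimated reads per library ranged from 18.7 to 29.3 M (M for mega). The 4 chow control libraries (18.7 to 21.4 M) lay below all others (22.8 M or more), so depth and group cannot be told apart in the comparisons with chow control. A score of circadian clock genes also differed by group. It is the mean log2 CPM (read counts scaled to a common library total) of 4 clock genes minus that of 9 others, and ran from -3.92 to -3.56 in chow control, -3.36 to -3.10 in chow renin, -3.68 to -3.37 in HFD control and -3.38 to -2.22 in HFD renin. All 8 ventricular cardiomyocyte markers were detected in every group. Their summed CPM was 56652 to 68754 in chow control, 52108 to 55163 in chow renin, 53727 to 62573 in HFD control and 46302 to 53220 in HFD renin. The summed CPM of 5 fibroblast markers was 499 to 870 in chow control and 474 to 700 in chow renin. It was 491 to 1123 in HFD control and 740 to 1163 in HFD renin, which lay above all of chow renin. For 6 atrial markers it was 188 to 1144 (median 262) in chow control, 85.4 to 923 (median 433) in chow renin, 60.6 to 825 (median 108) in HFD control and 145 to 1018 (median 718) in HFD renin. That of 7 neuron and glia markers was 169 to 281 in chow renin and at most 77.1 in the other groups. The part of depth, clock phase and these cell types in the results was not tested beyond the values given beside them. The clock score did not overlap between chow control and either renin group, and HFD control and HFD renin barely met. Fits with the score can thus hardly tell it from group in those comparisons. The share of all genes called in those fits is not given here. HFD control replicate 6 and HFD renin replicate 1 stood apart in several of the measures below, and values that moved by over 1.5 times without both are also given that way.

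The 6 transcripts together took between 20.5% and 26.5% of all reads of a library. Chow control hearts gave them 22.8% ± 0.589 (SD, n = 4), against 22.6% ± 0.900 (n = 6) in chow renin, 25.0% ± 1.14 (n = 6) in HFD control and 23.1% ± 1.57 (n = 5) in HFD renin. The lowest HFD control library, at 23.2%, lay inside the range of the chow control libraries, 22.4% to 23.7%, so the groups overlapped. HFD renin replicate 1 had the lowest share of all libraries and HFD control replicate 2 the highest. Without the pair of libraries named above, the mean shares were 25.1% in HFD control and 23.7% in HFD renin. In whole-tissue RNA, fewer cardiomyocytes, fewer mitochondria per cell and less RNA per mitochondrion cannot be told apart. Since these reads are so large a part of each library, a change in them also moves the shares of all other genes.

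Among the reads of the 13 mitochondrially encoded messenger RNAs the 6 held 69.2% to 72.6%, and the complex I messenger RNAs the rest. The group means were 70.1% in chow control, 70.1% in chow renin, 70.2% in HFD control and 69.5% in HFD renin. The highest value belonged to HFD control replicate 6. mt-Co1 alone held 34.3% ± 0.784 of these reads over the 21 libraries, mt-Cytb 11.4% ± 0.328, mt-Co3 8.72% ± 0.421, mt-Co2 8.38% ± 0.460, mt-Atp6 4.91% ± 0.273 and mt-Atp8 2.29% ± 0.159 (SD, n = 21).

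**Figure D1:**
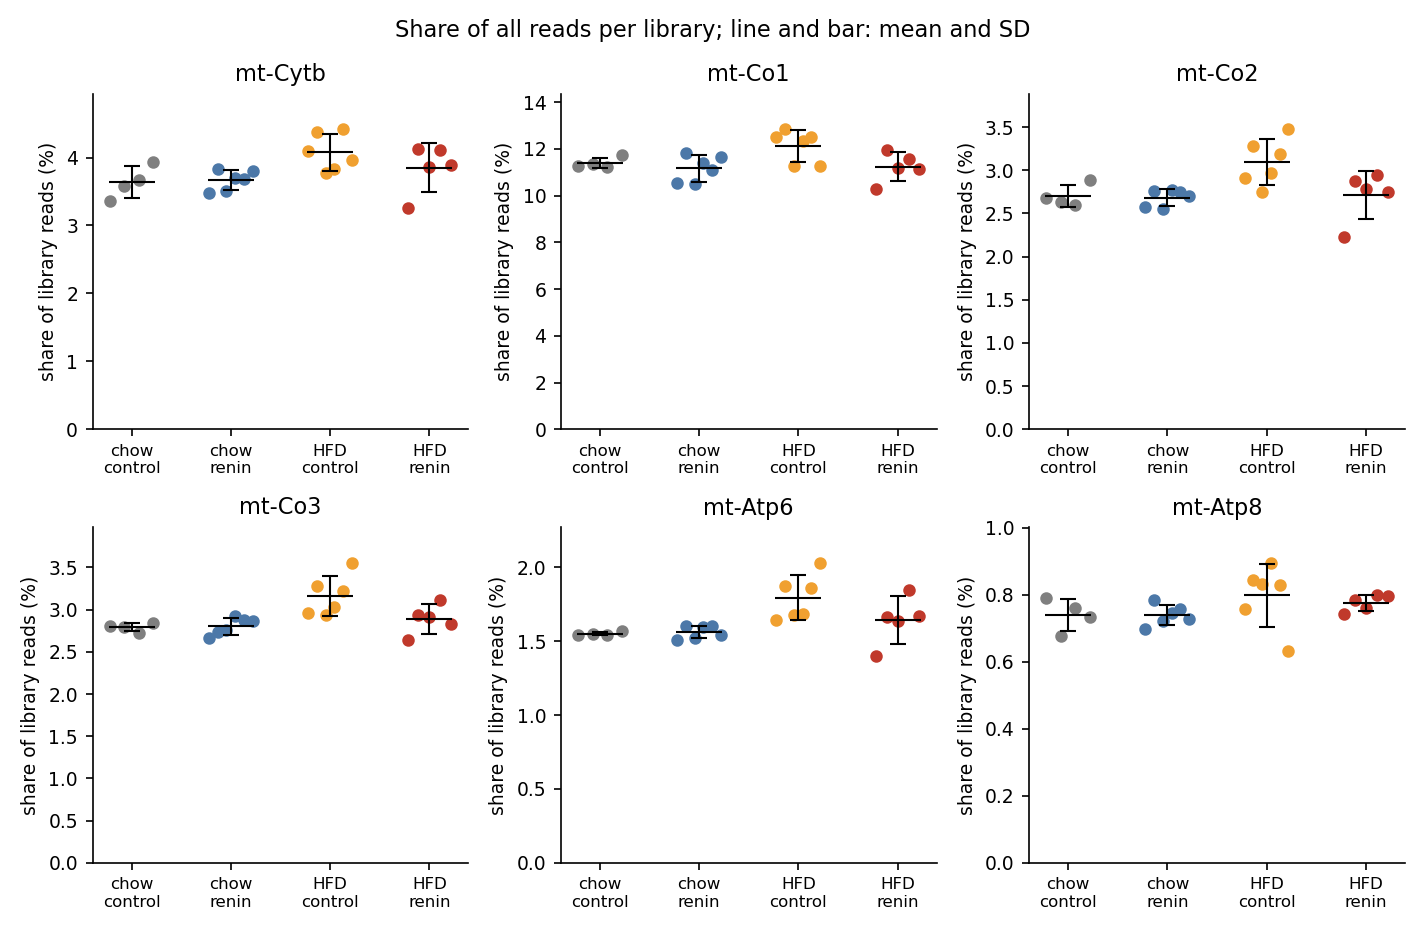
Share of all reads of a library (y axis, percent, from 0) for each of the 6 transcripts in the 4 groups (x axis). Each point is 1 heart, the horizontal line is the mean and the bars are the SD. HFD control has the highest mean for every transcript, and HFD renin replicate 1 is the lowest point of its group in each panel.

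mt-Co1 was the transcript with most reads in every library, and mt-Atp8 the one with fewest. The order by reads was mt-Co1, mt-Cytb, mt-Co3, mt-Co2, mt-Atp6, mt-Atp8 in 18 of 21 libraries, and in the other 3 mt-Co2 and mt-Co3 changed places. Reads depend on length, so levels were compared between genes only per length, on 2 scales that gave different answers for mt-Atp8. TPM, a scaled measure of transcript abundance, divides reads by an effective length, the part of a transcript where a sequenced fragment can start. For the short mt-Atp8 the deposited effective length was 26.9 to 27.9 bases, 13.6% of its length at the median, against 54.5% for mt-Atp6 and 79.0% for mt-Co1.

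On the TPM scale mt-Atp8 ranked first in all 21 libraries, with 176308 to 237448 TPM. This was 17.6% to 23.7% of the TPM of all genes from 0.632% to 0.895% of the reads. The other 5 followed far below, with medians of 72153 TPM for mt-Co1, 57907 for mt-Co2, 48430 for mt-Co3, 36400 for mt-Cytb and 33762 for mt-Atp6. Their order was the same in 19 of 21 libraries. The ranges of mt-Co1 (68560 to 80215) and mt-Co2 (48905 to 71266) touched only through HFD control replicate 6, while mt-Cytb (32072 to 39338) and mt-Atp6 (30824 to 41929) lay within the spread of each other. The 6 together made up 44.4% to 49.5% of TPM, so the TPM of every other gene depends on the effective length set for mt-Atp8.

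RPKM over the full annotated length, which is reads per kilobase scaled to the library total, gave mt-Atp8 no such place. mt-Co1 ranked first in all 21 libraries with a median of 73539 (66554 to 83012), and mt-Atp6 ranked last in all 21 with 23514 (20516 to 29793). mt-Co2 had a median of 40352 (32643 to 50783), mt-Atp8 37237 (30957 to 43896) and mt-Co3 36699 (33617 to 45323). These 3 lay within the spread of one another. mt-Cytb, at 33501 (28423 to 38579), ranked next to last in 20 of 21 libraries. The ratio of mt-Atp8 to mt-Atp6, which share a transcript, was 6.35 ± 0.383 in TPM and 1.59 ± 0.109 per full length in chow control (SD, n = 4). Across all libraries it ran from 4.20 to 7.04 in TPM and from 1.04 to 1.77 per full length, with HFD control replicate 6 the lowest on both scales.

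**Figure D2:**
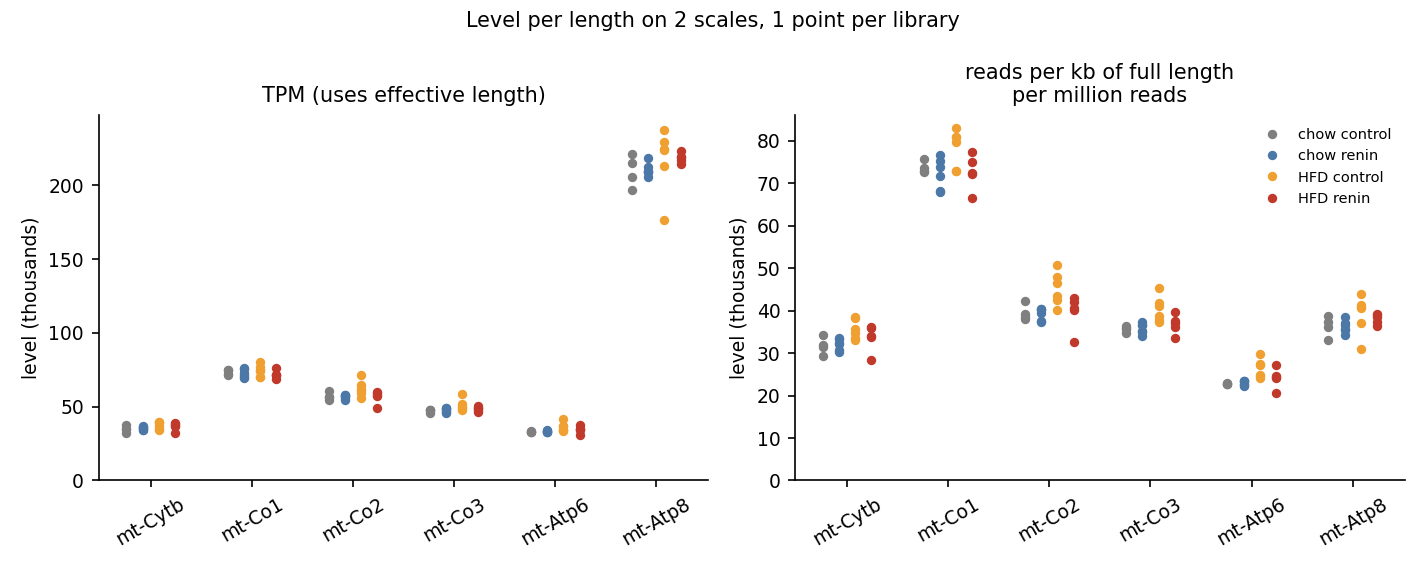
Level of each transcript (y axis, scaled as labelled) in TPM, left, and in RPKM over the full length, right, with 1 point per library coloured by group. mt-Atp8 lies above all others on the TPM scale and near mt-Co2 and mt-Co3 on the other.

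Differences were tested with edgeR's quasi-likelihood F test and Benjamini-Hochberg adjustment over 15208 genes, and called at an adjusted p under 0.05. For mt-Cytb of complex III the share of reads was 3.37%, 3.59%, 3.66% and 3.93% in the chow control hearts. Chow renin ran from 3.47% through a median of 3.69% to 3.84%, and HFD control from 3.78% through 4.03% to 4.41%. In HFD renin the 5 hearts had 3.25%, 4.13%, 3.86%, 4.12% and 3.90%. Of those 5, 4 lay within the HFD control range and 1 lay below every other heart. Chow control had a normalized level of 37154 ± 2703 CPM (SD, n = 4), against 35041 ± 2207 (n = 6) in chow renin, 43252 ± 5209 (n = 6) in HFD control and 39075 ± 4568 (n = 5) in HFD renin. Its log2 fold change was 0.22 (SE 0.09, adjusted p 0.395) in HFD control against chow control, and -0.15 (SE 0.09, adjusted p 0.298) in HFD renin against HFD control.

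mt-Co1, the catalytic core subunit of complex IV, held 11.3%, 11.4%, 11.2% and 11.7% of reads in chow control. It held 10.5% to 11.8% (median 11.2%) in chow renin and 11.2% to 12.8% (median 12.4%) in HFD control, and 10.3%, 12%, 11.2%, 11.6% and 11.1% in HFD renin. All groups overlapped. Mean levels were 116332 ± 4984, 106667 ± 7767, 128485 ± 13762 and 113888 ± 9541 CPM in the same order of groups (SD, n = 4, 6, 6 and 5). The log2 fold change was 0.14 (SE 0.08, adjusted p 0.561) in HFD control against chow control and -0.17 (SE 0.08, adjusted p 0.160) in HFD renin against HFD control.

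mt-Co2, which binds cytochrome c and holds a copper centre, took 2.68%, 2.64%, 2.60% and 2.89% of reads in chow control. The range was 2.56% to 2.77% (median 2.73%) in chow renin and 2.75% to 3.47% (median 3.08%) in HFD control. HFD renin hearts had 2.23%, 2.87%, 2.78%, 2.95% and 2.75%. Replicate 1 of that group was again the lowest of all, and the other 4 overlapped with both chow control and HFD control. Mean levels were 27596 ± 1845, 25649 ± 1458, 32782 ± 3668 and 27556 ± 3450 CPM. Of all 36 tests, that of mt-Co2 in HFD renin against HFD control had the smallest adjusted p, 0.0634, with a log2 fold change of -0.25 (SE 0.09). DESeq2 gave -0.26 and an adjusted p of 0.0249 for the same comparison. By edgeR the mt-Co2 value was -0.18 (adjusted p 0.203) without HFD renin replicate 1, and -0.17 (adjusted p 0.246) without both that library and HFD control replicate 6. It passed at -0.34 (adjusted p 0.0189) with the library total as a covariate, at -0.30 (adjusted p 0.0271) without HFD control replicate 3 and at -0.28 (adjusted p 0.0405) without HFD renin replicate 4.

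mt-Co3, a core subunit without metal centres, held 2.81%, 2.79%, 2.73% and 2.85% of reads in chow control. It held 2.66% to 2.92% (median 2.81%) in chow renin, 2.93% to 3.55% (median 3.13%) in HFD control, and 2.64%, 2.94%, 2.92%, 3.11% and 2.83% in HFD renin. As a share of reads, every HFD control heart lay above every chow control heart. How many of all genes do so was not counted. On the normalized scale used by the test the ranges met, at 29062 to 36703 CPM against 26685 to 29555. Mean levels were 28540 ± 1271, 26792 ± 1425, 33487 ± 3170 and 29275 ± 2392 CPM. The log2 fold change was 0.23 (SE 0.08, adjusted p 0.270) in HFD control against chow control. It was -0.19 (SE 0.07, adjusted p 0.0836) in HFD renin against HFD control, where DESeq2 gave -0.20 with an adjusted p of 0.0277 and edgeR without HFD control replicate 3 gave -0.24 with an adjusted p of 0.0405.

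mt-Atp6, the proton channel subunit of complex V, was the most even of the 6 in chow control, at 1.54%, 1.55%, 1.54% and 1.57% of reads. It held 1.51% to 1.60% (median 1.57%) in chow renin, 1.64% to 2.03% (median 1.77%) in HFD control, and 1.4%, 1.66%, 1.64%, 1.85% and 1.67% in HFD renin. The HFD control hearts lay above all chow control hearts on both scales, at 16611 to 21151 CPM against 15110 to 16289. In that comparison the CPM ranges of the other 5 overlapped. There edgeR called 0.0658% of all genes, and 1667 of 15208 had an unadjusted p under 0.05. The share of all genes whose ranges do not overlap was not counted. Mean levels were 15846 ± 526, 14930 ± 691, 18986 ± 1983 and 16660 ± 1922 CPM. The log2 fold change in HFD control against chow control was 0.26 (SE 0.08), a 1.20-fold ratio, with an unadjusted p of 0.00511 and an adjusted p of 0.255. Its value in HFD renin against HFD control was -0.19 (SE 0.08, adjusted p 0.124), and -0.12 (adjusted p 0.412) without the pair of libraries that stood apart.

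mt-Atp8, the small membrane subunit, held 0.790%, 0.676%, 0.760% and 0.735% of reads in chow control, 0.698% to 0.783% (median 0.737%) in chow renin and 0.632% to 0.895% (median 0.831%) in HFD control. HFD renin hearts had 0.743%, 0.784%, 0.762%, 0.801% and 0.795%. As a share of reads, HFD control replicate 6 had the least mt-Atp8 of all 21 hearts while it had the most mt-Co2, mt-Co3 and mt-Atp6. In CPM its mt-Atp8 was also the least, but HFD control replicates 2 and 5 had more of the other 3 transcripts. Mean levels were 7555 ± 445, 7064 ± 417, 8467 ± 1227 and 7870 ± 413 CPM. The log2 fold change in HFD control against chow control was 0.16 (SE 0.09, adjusted p 0.518), and 0.24 (adjusted p 0.205) without the pair of libraries that stood apart. In HFD renin against HFD control it was -0.11 (SE 0.08, adjusted p 0.460), and -0.16 (adjusted p 0.188) without that pair.

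The mean level of each of the 6 was highest in HFD control, and none of the differences from chow control passed the test. In HFD control against chow control all 6 estimates were above 0, with a median log2 fold change of 0.22 against 0.01 over all genes tested. 0 of 6 were called by edgeR, DESeq2 or limma, and 4 of 6 had an unadjusted p under 0.05 in edgeR. Few genes were called at all, 10 of 15208 or 0.0658%, although 1667 had an unadjusted p under 0.05. The 95% intervals of the 6, unadjusted, reached from 0.978-fold to 1.36-fold. With the library total as a covariate, 3 of the 6 estimates turned negative (mt-Cytb -0.03, mt-Co1 -0.05 and mt-Atp8 -0.10).

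For renin on chow the 6 estimates were below 0, and their size and sign moved with the covariate in the fit. In chow renin against chow control all 6 lay between -0.13 and -0.08 on the log2 scale (adjusted p 0.392 to 0.644), while 13.5% of all genes were called. 0 of 6 were called by edgeR, DESeq2 or limma, and 0 of 6 had an unadjusted p under 0.05. The intervals reached from 0.813-fold to 1.08-fold. With the clock score as a covariate, 4 of the estimates turned positive, between 0.01 and 0.06. All 6 moved away from 0 with the library total as a covariate, to between -0.39 for mt-Atp8 and -0.20 for mt-Co3 (adjusted p 0.154 to 0.515).

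For the combined model the 6 estimates lay on both sides of 0. HFD renin against chow control gave log2 fold changes from -0.03 for mt-Co1 to 0.07 for mt-Cytb (adjusted p 0.659 to 0.992), and 8.3% of all genes were called. None of the 6 was called by edgeR, DESeq2 or limma, and 0 of 6 had an unadjusted p under 0.05. The intervals ran from 0.864-fold to 1.21-fold. With the library total as a covariate all 6 were below 0, at -0.28 for mt-Cytb, -0.30 for mt-Co1, -0.32 for mt-Co2, -0.10 for mt-Co3, -0.17 for mt-Atp6 and -0.30 for mt-Atp8 (adjusted p 0.321 to 0.783). With the clock score all 6 were above 0, from 0.05 for mt-Co1 to 0.27 for mt-Atp6 (adjusted p 0.713 to 0.976). Without the pair of libraries that stood apart the estimates ran from 0.00016 for mt-Co1 to 0.13 for mt-Cytb and mt-Atp6 (adjusted p 0.361 to 0.999). The authors' deposited table gives its own comparison of high-fat diet with virus, with a reference that it does not state. There the log2 fold changes of the 6 were -0.02 for mt-Co1, -0.01 for mt-Co2, 0.02 for mt-Co3, 0.03 for mt-Atp8, 0.04 for mt-Atp6 and 0.04 for mt-Cytb. The adjusted p-values in the authors' deposited table were 0.771 to 0.954.

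Renin on HFD gave estimates below 0 for all 6. The 6 estimates in HFD renin against HFD control ran from -0.25 for mt-Co2 to -0.11 for mt-Atp8, with a median of -0.18 against -0.01 over all genes. edgeR called 0 of 6 where 11.2% of all genes were called. In edgeR 4 of 6 had an unadjusted p under 0.05, as had 4023 of the 15208 genes tested. DESeq2 called mt-Co2 and mt-Co3, and its share of calls over all genes is not given here. limma called 0 of 6. The unadjusted 95% intervals ran from 0.742-fold to 1.05-fold. With the clock score as a covariate the estimates shrank to between -0.12 and -0.06 (adjusted p 0.897 to 0.966). They grew with the library total as a covariate, to between -0.34 for mt-Co2 and -0.20 for mt-Atp8 (adjusted p 0.0189 to 0.118), with mt-Cytb at -0.25. Without the pair of libraries that stood apart they were -0.18 for mt-Co1 to -0.12 for mt-Cytb and mt-Atp6 (adjusted p 0.188 to 0.486). The summed cardiomyocyte markers were lower and the median of the atrial markers higher in HFD renin than in HFD control, and their part in these estimates was not tested. This comparison and that of HFD control with chow control share the HFD control libraries, so a high level there moves both.

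HFD renin against chow renin gave positive estimates for all 6, from 0.09 to 0.16 (adjusted p 0.160 to 0.439). 22.6% of all genes were called in that comparison, and 0 of 6 by edgeR, DESeq2 or limma. No unadjusted p of the 6 was under 0.05. The estimates were 0.04 to 0.11 with the library total as a covariate and 0.12 to 0.21 with the clock score. The interaction, which subtracts the renin effect on chow from that on HFD, was between -0.14 for mt-Co2 and -0.01 for mt-Atp8 (adjusted p 0.550 to 0.981). 10.4% of all genes were called for the interaction, and 0 of 6 by edgeR, DESeq2 or limma, with 0 of 6 at an unadjusted p under 0.05. The interaction without the pair of libraries that stood apart was -0.08 for mt-Co2 and mt-Atp8, -0.07 for mt-Co1 and mt-Co3, and -0.04 for mt-Cytb and mt-Atp6 (adjusted p 0.745 to 0.900).

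**Figure D3:**
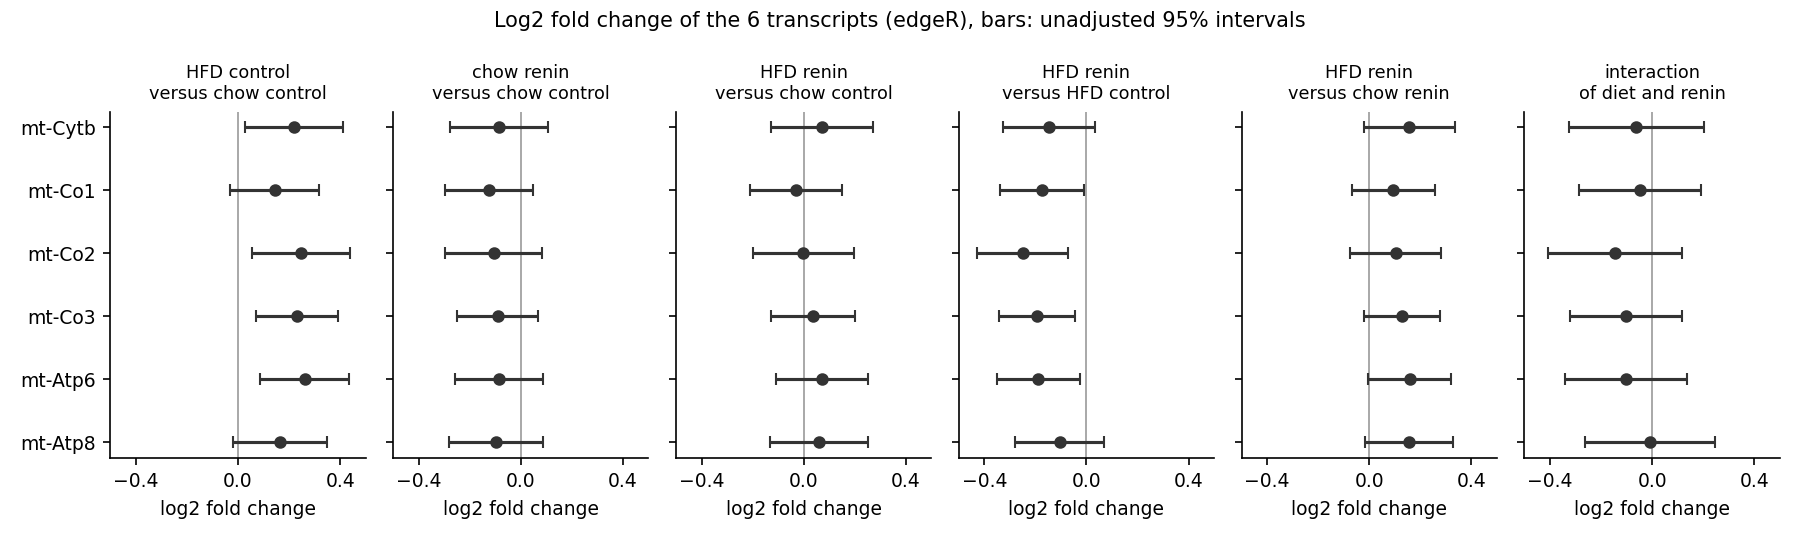
Log2 fold change (x axis) of each of the 6 transcripts (y axis) in the 6 comparisons, with unadjusted 95% intervals from the edgeR fit as bars and a line at 0. All 6 lie right of 0 in HFD control against chow control and left of 0 in HFD renin against HFD control, and none passed an adjusted p under 0.05.

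The nuclear copy Gm28661 took from 0% to 14.8% of the reads summed over it and mt-Co2. Its estimated reads ranged from 0 in HFD control replicate 6 to 89945 in HFD renin replicate 1, with a median of 33818. The shares were 6.08%, 6.86%, 9.65% and 4.41% in chow control and 2.91% to 5.78% in chow renin. In HFD control replicates 1 to 6 they were 4.71%, 1.04%, 4.62%, 3.26%, 0.755% and 0%, and in HFD renin 14.8%, 3.19%, 4.17%, 3.38% and 2.46%. The library with no read for the copy had the highest share of mt-Co2, and the library with most had the lowest. Summing both genes brought HFD renin replicate 1 from 2.23% to 2.62% of reads and left HFD control replicate 6 at 3.47%.

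With the reads of Gm28661 added, the log2 fold change of mt-Co2 went from 0.25 to 0.18 in HFD control against chow control and from -0.25 to -0.20 in HFD renin against HFD control (adjusted p 0.0737). The interaction went from -0.14 to -0.07. Which of the reads came from either genome was not tested. The nuclear copies of the other members took next to none. Of 13 nuclear genes that share at least 31 bases in a row with 1 of the 6, 9 had any read. Gm10925 is identical to mt-Atp6 over 678 bases and had 0 reads in every library. Gm28437 is identical to mt-Co3 over 783 bases and had at most 434 reads. Gm13340, 97.6% identical to mt-Co1, had 197 to 372 reads, 0.00923% of those of mt-Co1. Each of the remaining 9 had at most 32.1 reads in any library.

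**Figure D4:**
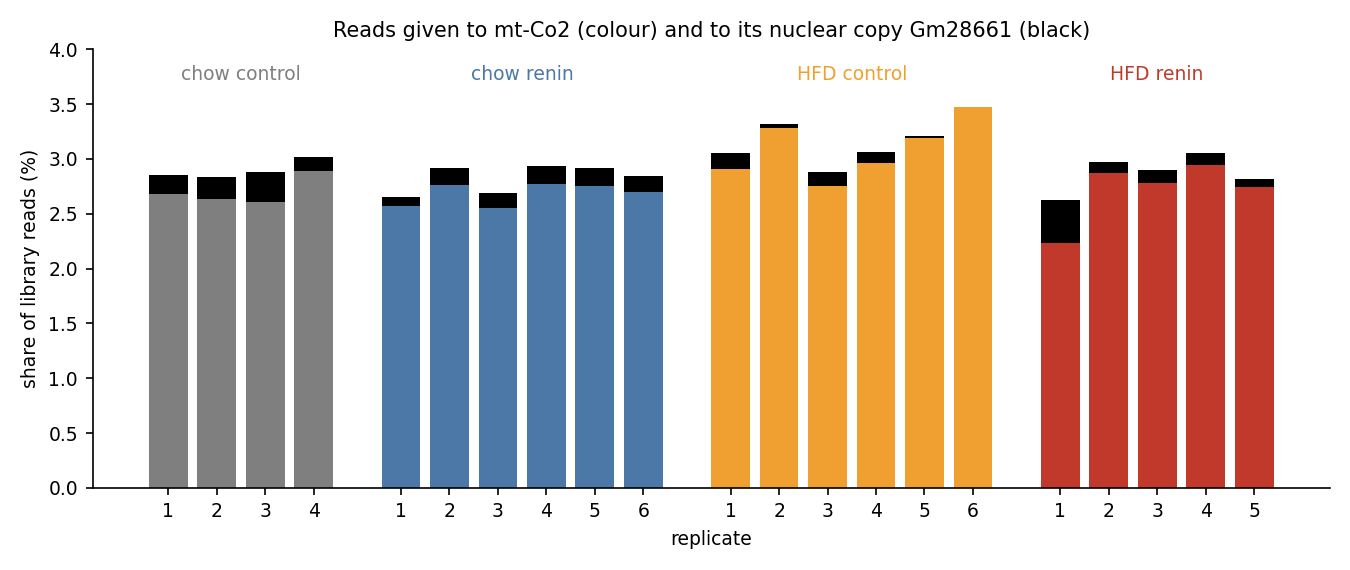
Share of all reads (y axis, percent, from 0) given to mt-Co2 (coloured by group) and to Gm28661 (black, stacked on top) in each of the 21 libraries (x axis, replicate number within group). The black part is 0 in HFD control replicate 6 and largest in HFD renin replicate 1.

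The 6 transcripts varied together over the libraries. Pearson's r between pairs of log2 CPM over 21 libraries ran from 0.584 (mt-Co2 with mt-Atp8) to 0.976 (mt-Co3 with mt-Atp6), as a description, since the values share library, depth and scaling. mt-Atp8 gave the 5 lowest values, up to 0.800 with mt-Co1. Without HFD control replicate 6 its correlations with the others were between 0.812 and 0.881. In that heart mt-Atp8 reads were 31.1% of mt-Atp6 reads, against 43.3% to 53.2% in the other 20. It also had the lowest ratios of mt-Co1 to mt-Co2 (3.25) and of mt-Co1 to mt-Co3 (3.17). The ratio of mt-Co2 to mt-Co3 reads lay between 0.847 and 1.01.

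Of the complex I messenger RNAs, mt-Nd4 was most like the mean of the 6 (r = 0.976) and mt-Nd5 least (r = 0.499) over the 21 libraries. Among genes outside the mitochondrial chromosome the 5 with the highest r to that mean were Apoo (r = 0.889, 81.3 CPM on average), a protein of the inner membrane folds, Acads (r = 0.884, 156 CPM), which oxidises short-chain fatty acids, Coq2 (r = 0.867, 74.6 CPM), an enzyme of coenzyme Q synthesis, Rnf123 (r = 0.864, 91.0 CPM), a ubiquitin ligase, and Prdx3 (r = 0.861, 192 CPM), the mitochondrial peroxiredoxin. Of these 5, 4 encode mitochondrial proteins. They were chosen as the highest of all tested genes, so the values are a description.

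The complex I messenger RNAs had medians near those of the 6 in 5 of the 6 comparisons, and mt-Nd3 and mt-Nd2 passed the test in some comparisons. In HFD control against chow control their median log2 fold change was 0.23, beside 0.22 for the 6, with a range from 0.07 for mt-Nd5 to 0.53 for mt-Nd3. For the interaction their median was 0.01 with 4 positive and 3 negative, beside -0.08 with 6 of 6 negative for the 6. mt-Nd3, a small membrane subunit of complex I, rose from 967 ± 74.2 CPM (n = 4) to a mean of 1400 (1151 to 1654, n = 6), a log2 fold change of 0.53 (SE 0.09, adjusted p 0.0393), and was 1 of 2 genes (0.0132%) called higher of all tested. mt-Nd3 fell in HFD renin against HFD control, by 0.30 on the log2 scale (adjusted p 0.0282), where 5.08% of all genes were called lower, and the median of the 7 was -0.18, as for the 6. mt-Nd2 rose in HFD renin against chow renin (log2 fold change 0.26, adjusted p 0.0413), where 9.81% of all genes were called higher. No complex I messenger RNA was called in the other 3 comparisons, save 1 lower for the interaction without HFD control replicate 1. Each of these calls was lost without certain single libraries. In HFD control against chow control 0 of 7 were called with the library total as a covariate, or without any 1 of the 4 chow control libraries, chow renin replicate 3, HFD control replicate 2, 5 or 6, or HFD renin replicate 3 or 5. In HFD renin against HFD control 0 of 7 were called with the clock score in the fit, or without HFD control replicate 2, 5 or 6 or HFD renin replicate 1 or 5, and 3 were called with the library total. Both calls of mt-Nd3 were lost without the pair of libraries that stood apart. The call of mt-Nd2 was lost with the library total, or without chow control replicate 1 or 2, any 1 of chow renin replicates 1 to 5, HFD control replicate 3, or any 1 of HFD renin replicates 2 to 5.

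The nuclear genes of complexes III, IV and V, from lists of 9, 17 and 18, encode the imported partners of the 6. In HFD renin against HFD control 6 of 9, 10 of 17 and 14 of 18 were called lower and none higher, where 5.08% of all genes were called lower. Their median log2 fold changes were -0.24, -0.27 and -0.28, beside -0.18 for the 6 mitochondrial transcripts and -0.01 for all genes. In complex III, Uqcrq fell from 317 ± 55.7 to 254 ± 23.6 CPM (log2 fold change -0.32, adjusted p 0.0266), Uqcr11 by 0.30, the core protein Uqcrc1 by 0.30 (adjusted p 0.00359) and the hinge protein Uqcrh by 0.25. In complex IV, Cox7a1, the form of heart and skeletal muscle, fell from 347 ± 55.7 to 245 ± 33.3 CPM (log2 fold change -0.50, adjusted p 0.00370), Cox7b by 0.40 and Cox7c by 0.39. Cox6b2 fell most (log2 fold change -0.88), from 1.34 ± 0.424 to 0.726 ± 0.0723 CPM, a very low level. In complex V, Atp5e, the epsilon subunit of the catalytic part, fell from 212 ± 39.4 to 154 ± 25.0 CPM (log2 fold change -0.46, adjusted p 0.0105), Atp5j by 0.37, Atp5g2 by 0.36 and Atp5o by 0.33.

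These counts moved with single libraries and with the clock score in the fit. DESeq2 gave 8, 12 and 15 called lower. Complex III had 3 called lower without HFD control replicate 5 or 6, 2 without HFD renin replicate 1 and 1 without HFD renin replicate 5, and complex V had 7 without either of the last pair. With HFD control replicate 6 and HFD renin replicate 1 both left out, 1, 6 and 6 were called. Adding the clock score to the fit left 0 called in all 3 lists. The score nearly separates these groups (-3.68 to -3.37 in HFD control and -3.38 to -2.22 in HFD renin), so that fit can hardly tell it from renin. The share of all genes called in that fit is not given here. The summed CPM of ventricular cardiomyocyte markers did not overlap between these groups (53727 to 62573 and 46302 to 53220), and the median sum of the atrial markers was 108 and 718. Their part in the counts was not tested. Whether the mitochondrial and the nuclear subunits differed from each other in response was not tested.

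**Figure D5:**
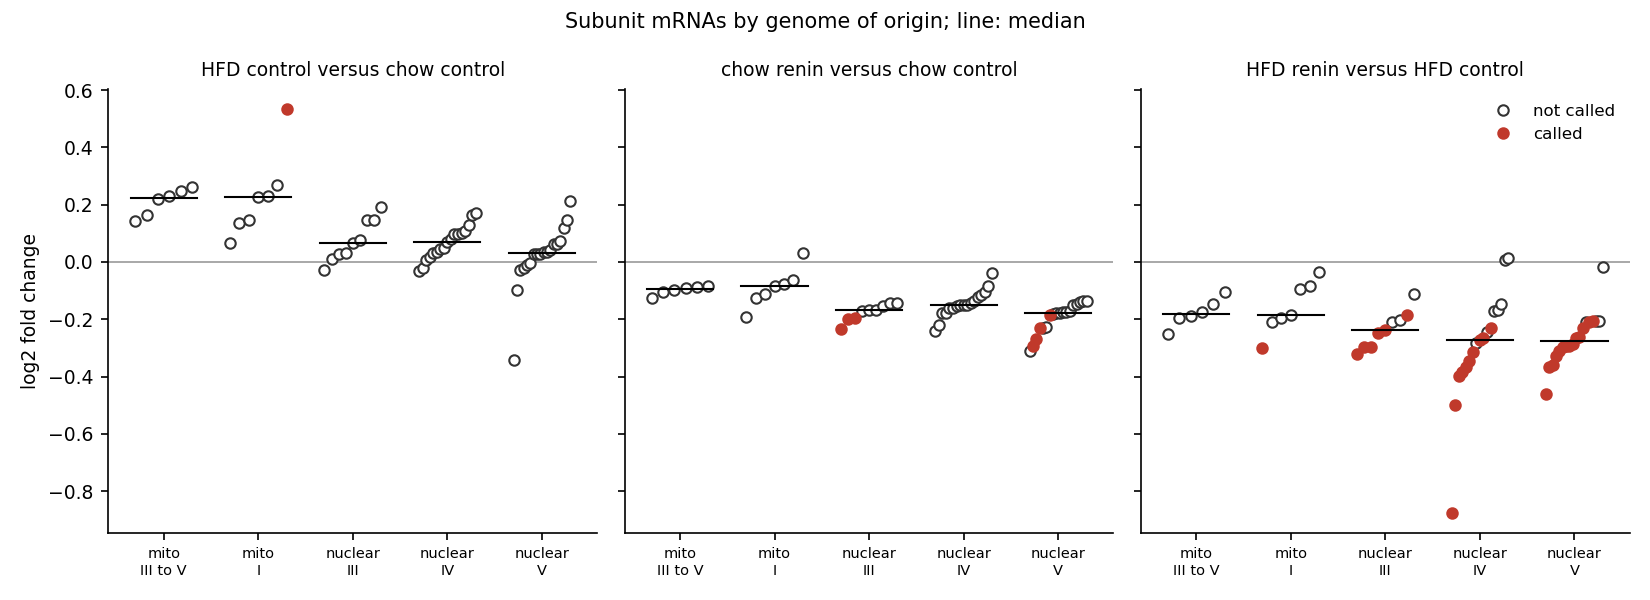
Log2 fold change (y axis) of subunit messenger RNAs in 3 comparisons, grouped on the x axis as the 6 mitochondrial transcripts of complexes III to V, the 7 of complex I, and nuclear subunits of complexes III, IV and V. Filled points passed an adjusted p under 0.05 and lines are medians. The nuclear medians are -0.24, -0.27 and -0.28 in HFD renin against HFD control, and the median of the 6 is -0.18.

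In HFD renin against chow control 1 of 9, 4 of 17 and 7 of 18 nuclear subunits were called lower and none higher, where 4.25% of all genes were called lower, with medians of -0.17, -0.19 and -0.24 beside 0.05 for the 6 mitochondrial transcripts. Uqcrc1 fell by 0.27, Cox6b2 by 0.87, Cox7a1 by 0.39, Cox7b by 0.30, Cox6a2 by 0.28, Atp5o by 0.35, Atp5g1 by 0.31, Atp5c1 by 0.27 and Atp5h by 0.25. The complex III count was 0 without chow control replicate 4, 3 without chow control replicate 3, and 2 without HFD control replicate 3 or 6. The complex V count was 2 without chow control replicate 1, 2 or 4 or HFD renin replicate 1 or 5, and 11 without chow control replicate 3 or HFD control replicate 6. The complex IV count was 1 or 2 without the same 5 libraries or HFD renin replicate 2. In chow renin against chow control 3 of 9, 0 of 17 and 4 of 18 were called lower, where 3.35% of all genes were (Cyc1 by 0.23, Uqcrfs1 by 0.20, Uqcrc1 by 0.20, Atp5g1 by 0.29, Atp5d by 0.27, Atp5g3 by 0.23 and Atp5f1 by 0.19), with medians of -0.17, -0.15 and -0.18 beside -0.09 for the 6. Those counts were 0, 0 and 0 without chow control replicate 1 or 2 or chow renin replicate 3, and at most 1 each without chow control replicate 4 or chow renin replicate 1, 2 or 5. They reached 3, 2 and 6 without the pair of libraries that stood apart, 4, 2 and 8 without HFD control replicate 6 and 4, 1 and 7 without chow control replicate 3. DESeq2 gave 3, 2 and 6 in that comparison, and 2, 5 and 10 in HFD renin against chow control. Adding the clock score to the fit left 0 called in all 3 lists in both of these comparisons. Adding the library total left 0, 0 and 2 called in HFD renin against chow control and 0 in all 3 lists in chow renin against chow control. In HFD control against chow control 0 of 44 were called, as for the 6, and 1 of 17 of complex IV was called in each direction in HFD renin against chow renin (Cox7a2l, log2 fold change 0.25, and Cox6b2, -0.75), beside 9.81% of all genes higher and 12.8% lower. In HFD renin against chow renin the complex IV count called lower was 2 with DESeq2, with the library total, or without HFD control replicate 6. None of the 44 was called for the interaction in the main fit. For the interaction 1 of complex IV was called lower with the clock score, with DESeq2, or without certain single libraries.

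Assembly factors of complexes III to V, 30 genes, had calls in both directions. In HFD renin against HFD control 2 of 30 were called higher and 2 lower, where 6.07% and 5.08% of all genes were. Cox19 and Coa5, both needed to build cytochrome c oxidase, rose (log2 fold changes 0.51 and 0.37). Cox19 went from 32.5 ± 4.47 to 46.2 ± 8.66 CPM. Fmc1, a complex V factor, and Cox10, which makes the heme A precursor for mt-Co1, fell by 0.42 and 0.25. Against chow renin 8 of 30 rose, where 9.81% of all genes did and 22.6% were called either way, led by Cox19 (0.57), Coa5 (0.51), the copper chaperone Sco1 (0.42) and Bcs1l (0.29), and none fell. Chow renin against chow control had 5 of 30 lower, beside 3.35% of all genes, led by Cox10, which fell by 0.43, Lyrm7 by 0.41, Bcs1l by 0.32 and Uqcc1 by 0.29. HFD renin against chow control had 1 higher (Cox19, 0.49) and 1 lower (Cox10, -0.31), beside 4.05% and 4.25% of all genes. The interaction was called for 5 of 30, all positive, beside 3.14% of all genes called positive and 10.4% called either way, led by Taco1 (0.75), an activator of mt-Co1 translation, with Coa5 (0.63), Cox19 (0.60) and Lyrm7 (0.46). None of the 30 was called in HFD control against chow control, where Taco1 (-0.40, adjusted p 0.322) and Sco2 (-0.38, adjusted p 0.361) had the smallest adjusted p. These counts moved with single libraries. Against chow renin 2 were higher without HFD renin replicate 1, 4 without chow renin replicate 1 or 3 and 5 without chow renin replicate 2. In chow renin against chow control 1 was lower without chow control replicate 1, 3 without chow control replicate 2 and 8 without HFD control replicate 6. The interaction had 2 without chow control replicate 1 or 2 or HFD renin replicate 1, and 3 without chow renin replicate 1, 2 or 3, HFD control replicate 3 or 4, or HFD renin replicate 5. HFD renin against HFD control had 1 higher without HFD renin replicate 1 or 5, 0 lower without HFD control replicate 5 or HFD renin replicate 5, and 1 lower without HFD control replicate 2 or 6 or HFD renin replicate 1, 2 or 3. HFD renin against chow control had 0 in both directions without chow control replicate 2, and 0 lower without chow control replicate 1 or 4. With the clock score in the fit 0 were called in either direction in HFD renin against HFD control or chow control, and 4 were higher against chow renin. With the library total, 0 were called in chow renin against chow control, 0 for the interaction, 0 lower in HFD renin against chow control and 1 lower in HFD renin against HFD control. Without the pair of libraries that stood apart, 8 were lower in chow renin against chow control, 4 higher in HFD renin against chow renin, 1 in each direction in HFD renin against HFD control, and 3 called for the interaction.

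The factors that transcribe, cut and stabilise mitochondrial RNA, 32 genes, showed few calls. Hsd17b10, a subunit of the enzyme that cuts the 5′ ends of mitochondrial transfer RNAs, fell in the 3 comparisons of HFD renin, by 0.51 against chow control, 0.36 against HFD control and 0.36 against chow renin (adjusted p 0.000124, 0.0013 and 9.78e-05). It measured 90.6 ± 5.25, 81.2 ± 4.78, 81.2 ± 7.04 and 63.5 ± 1.88 CPM in the 4 groups. The HFD renin hearts, at 60.9 to 65.2 CPM, lay below all others. How many of all genes separate in this way was not counted. All genes were called lower at 4.25%, 5.08% and 12.8% in these comparisons. Rexo2, a ribonuclease that degrades short RNA fragments, rose against both control groups (0.23 against chow control and 0.27 against HFD control). Against chow renin, Tefm (0.33), the transcription elongation factor, Supv3l1 (0.27), a helicase of RNA decay, and Tfam (0.25), which packages the genome and starts transcription, rose as well, for 4 higher and 1 lower of 32, beside 9.81% and 12.8% of all genes. The interaction was called for Supv3l1 (0.45), Tefm (0.39), Tfam (0.35) and Rexo2 (0.28), all positive, 4 of 32 beside 3.14% of all genes. In chow renin against chow control Supv3l1, Tbrg4 and Fastk fell by 0.30, 0.28 and 0.23, 3 of 32 beside 3.35% of all genes. In HFD control against chow control none of the 32 was called, and Tfb1m (-0.30, adjusted p 0.282) and Hsd17b10 (-0.16, adjusted p 0.367) had the smallest adjusted p. Leaving out single libraries moved these counts as well. Against chow renin 2 were higher without chow renin replicate 1 or 3 or HFD renin replicate 1. The interaction had 0 without chow control replicate 1 or 2, chow renin replicate 1 or 3 or HFD renin replicate 1, and 1 or 2 without chow control replicate 3, chow renin replicate 4, 5 or 6, HFD control replicate 1, 2, 3 or 6, or HFD renin replicate 2 or 5. In chow renin against chow control 0 were lower without chow control replicate 1 or 2, 1 without chow renin replicate 3, and 5 without chow control replicate 3 or HFD control replicate 6. None was higher in HFD renin against chow control without any 1 of the 4 chow control libraries, chow renin replicate 1, 3 or 5, or HFD renin replicate 1, 2 or 5, and 2 were lower without chow control replicate 3. Against HFD control, HFD renin had 2 higher without HFD renin replicate 4, and 2 lower without HFD control replicate 1 or HFD renin replicate 3. In the 3 comparisons of HFD renin at least 1 of the 32 was lower whichever library was left out. With the clock score in the fit none of the 32 was called in HFD renin against either control group, Hsd17b10 and Rexo2 included, and 2 were higher against chow renin. With the library total, 0 of 32 were called for the interaction, 0 in chow renin against chow control and 0 higher in HFD renin against chow control, where the call of Rexo2 was lost. That call was also lost without the pair of libraries that stood apart, which left 0 for the interaction and 2 higher against chow renin, with 2 lower against chow control.

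Of 7 genes of mitochondrial DNA replication, Mgme1 fell by 0.31 in chow renin against chow control and Top1mt by 0.40 in HFD renin against HFD control, and no other test of the list passed. All genes were called lower at 3.35% and 5.08% in these comparisons. Of 12 regulators of mitochondrial biogenesis, Esrra, a nuclear receptor that drives genes of oxidative metabolism, fell by 0.27 in chow renin against chow control and by 0.25 in HFD renin against HFD control. No other member of that list was called in any comparison. Each of these 4 calls was lost with the clock score as a covariate and with the library total as a covariate. Without the pair of libraries that stood apart, those of Top1mt and of Esrra in HFD renin against HFD control were lost. That of Mgme1 was lost without chow control replicate 1 or 2 or chow renin replicate 1, 2 or 5, and that of Top1mt without any 1 of 14 of the 21 libraries. The replication list had 2 lower in HFD renin against HFD control without HFD renin replicate 3, and 1 lower in HFD renin against chow control with DESeq2, or without chow control replicate 2, HFD control replicate 6 or HFD renin replicate 3 or 4. The call of Esrra was lost in chow renin against chow control without chow control replicate 1 or 2 or chow renin replicate 3 or 5, and in HFD renin against HFD control without HFD control replicate 5 or 6 or HFD renin replicate 2 or 5. The biogenesis list had 3 lower in chow renin against chow control without chow control replicate 3 or chow renin replicate 6, and 1 lower in HFD renin against chow control without chow control replicate 3 or HFD renin replicate 4. The amount of mitochondrial DNA was not measured in these data, and the mitochondrial ribosomal RNAs were not analysed here.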

How the data were processed

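Heart tissue RNA of 21 mice was sequenced. Per the file headers, the authors deposited for each library a transcript table with length, effective length, TPM and an estimated count (NumReads). Per the submitters' processing notes Salmon 1.10.2 and DESeq2 1.40.2 were used with GRCm38 and mm10. The authors also deposited a gene matrix of a normalized signal, with their own log2 fold change and adjusted p-value for 1 comparison. For 99.5% to 99.7% of genes in a library, the 6 included, that signal was within 5% of gene TPM times 1 factor per library (1.14 to 1.59).

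Of 119215 transcripts listed, 97.9% matched GENCODE M21. Their estimated counts were summed per gene and rounded, where whole counts had been planned for. edgeR 4.0.16 (R 4.3.3) fitted 1 quasi-likelihood model with 4 groups and TMM factors (0.886 to 1.09) to 15208 genes kept by filterByExpr, with Benjamini-Hochberg adjustment over all of them. Calls needed an adjusted p under 0.05. CPM values use TMM library sizes. limma 3.58.1 used log2 values with a pseudocount of 1, and DESeq2 1.42.0 the counts. Nothing in the labels beyond a replicate number tells how the hearts were processed, so p-values measure the spread between these samples.

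All 6 genes are named in every comparison. From each list of partner genes up to 4 are named, the called ones with the largest change, or up to 2 with the smallest adjusted p where none was called. The rule that picks the 6 uses gene names alone, but the rule and the lists were chosen with earlier results of these data known. On simulated data of 15015 genes for HFD renin against chow control, the fit was tested with 200 changed genes, and recovered 85% at a log2 change of 1 and 99% at 2. Smaller changes were not simulated, and the main-fit estimates of the 6 were at most 0.26 in size. The simulation therefore does not tell how often changes of that size would be called.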

Additional observations from a re-analysis of the deposited data

Results flagged for a closer look

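Of 68 groups of 4 to 6 libraries that were looked at, 9 held a library far from the others of its group. Chance flags about 1 in 20 of independent groups, but many of the 68 draw on the same reads, so the rates cannot be compared. In HFD control replicate 6, mt-Co2 was 10.1% of mitochondrial messenger RNA reads (8.22% to 8.67% in the other 5), mt-Co3 was 10.4% (8.36% to 8.77%) and mt-Atp6 was 5.91% (4.64% to 5.01%). In the same library the ratio of mt-Co1 to mt-Co2 reads was 3.25 (3.90 to 4.30 in the others) and that of mt-Co1 to mt-Co3 was 3.17 (3.84 to 4.23). Both ratios only just passed the limit used for flagging. In HFD renin replicate 1, mt-Co2 was 7.56% of mitochondrial messenger RNA reads (8.23% to 8.37% in the other 4), and Gm28661 took 14.8% of the reads it shares with mt-Co2 (2.46% to 4.17%). In chow renin replicate 1, Gm28661 took 2.91% (5.0% to 5.78% in the other 5). In chow control replicate 4 the 6 transcripts held 23.7% of all reads (22.4% to 22.6% in the other 3).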

How the results depend on the processing

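The mean share of reads of the 6 in each group moved by less than 1 SD of that group under every alternative run. Leaving out 1 library of a group cannot move its mean by 1 SD, so those runs could not have shown otherwise. In 5 comparisons 0 of 6 were called under every alternative. In HFD renin against HFD control the count was 1 with the library total as a covariate (mt-Co2, -0.34), 1 with the replicate number as a block (mt-Co2, -0.24, adjusted p 0.0448), 2 with DESeq2 (mt-Co2 and mt-Co3), and 0 to 2 when single libraries were left out: 2 without HFD control replicate 3 and 1 without HFD renin replicate 4. Same-numbered hearts were not taken as pairs in the main fit, since the replicate numbers name separate mice. The correlation of deviations was still more often over 0.1 in same-numbered pairs, 11 of 28 (median 0.079), than in other pairs, 21 of 136 (median -0.024). Of 21 libraries, 7 correlated best with their own number. Whether same-numbered hearts share a batch was not tested. Whether the replicate block was used changed no other call of the 6.

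These log2 fold changes changed sign, with none called, and the cause was not tested. With the library total as a covariate, HFD control against chow control gave mt-Cytb -0.0298, mt-Co1 -0.0532 and mt-Atp8 -0.10, HFD renin against chow control gave mt-Cytb -0.28, mt-Co3 -0.10, mt-Atp6 -0.17 and mt-Atp8 -0.30, and the interaction gave mt-Cytb 0.12, mt-Co1 0.0949, mt-Co2 0.0109, mt-Atp6 0.0168 and mt-Atp8 0.19. With the clock score, chow renin against chow control gave mt-Cytb 0.0131, mt-Co2 0.0647, mt-Co3 0.0125 and mt-Atp6 0.0578, and HFD renin against chow control gave mt-Co1 0.0457 and mt-Co2 0.23. With limma on log2(TPM + 1), chow renin against chow control gave mt-Cytb 0.0217, mt-Co3 0.0095, mt-Atp6 0.0126 and mt-Atp8 0.00906, HFD renin gave mt-Atp8 0.0149 against HFD control and mt-Co1 -0.0110 and mt-Co2 -0.00686 against chow renin, and the interaction gave mt-Atp8 0.00582. Without HFD control replicate 6 and HFD renin replicate 1, an alternative chosen after seeing the data, HFD renin against chow control gave mt-Co1 0.00016 and mt-Co2 0.0602. Leaving out single libraries gave mt-Co1 -0.0708 to 0.000306 and mt-Co2 -0.0392 to 0.0603 there, and mt-Atp8 -0.0799 to 0.0257 for the interaction.

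A share of reads without mitochondrial ribosomal RNAs was not run, since the tables list none. Calls of partner genes were rerun as counts per list, an alternative chosen after seeing the data. With the replicate block, 0 of 7 complex I messenger RNAs were called in HFD control against chow control and in HFD renin against HFD control, and in the latter 0 genes of the replication and biogenesis lists. In chow renin against chow control 8 assembly factors were lower (5 without the block), and the nuclear lists of complexes IV and V had 4 and 8 (0 and 4). Those of complexes III and V had 2 and 12 (1 and 7) in HFD renin against chow control. In the other lists and comparisons the block moved the count by at most 1.5 times.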
